A study of Mus musculus with 6 samples.

Results

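Troponins and tropomyosin are the proteins that switch heart muscle on and off along the actin (thin) filament. Their transcripts were examined in RNA from crude heart mitochondria in 3 libraries from Polrmt knockout mice and 3 from control mice. The genes are Tnnt2, Tnni3, Tnni1, Tnnc1 and Tpm1, which were found by symbol among the 39177 gene rows of the count files, and all 5 had 1 row each. Knockout mice carried Polrmt alleles with loxP sites around exon 3 and a cre transgene driven by the promoter called muscle creatinine kinase in the labels, and their genotype is labelled Polrmt -/-. Control mice carried the same loxP-flanked alleles without cre and are labelled Polrmt +/+. All mice were C57BL/6N and 3 to 4 weeks old. Polrmt encodes the RNA polymerase of mitochondria, and cre from a muscle promoter is made in muscle cells and not in the other cells of the heart. Nothing in the labels says whether a library holds 1 mouse or a pool, so p-values measure the spread between these libraries.

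In a resting heart cell, tropomyosin lies along actin and covers the sites that myosin binds. When calcium rises it binds troponin C, troponin I releases actin, and troponin T passes the change on to tropomyosin, which moves and lets myosin attach. Tnnt2 encodes cardiac troponin T, Tnni3 cardiac troponin I, Tnnc1 the troponin C shared by heart and slow skeletal muscle, and Tpm1 alpha-tropomyosin, which is also made in other cell types in other splice forms. Tnni1 encodes slow skeletal troponin I, the form of the fetal heart, which is replaced by Tnni3 around birth and in the weeks after it.

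The genes lie at 4 places in the genome. Tnnt2 (chromosome 1, 135836354 to 135852260) and Tnni1 (chromosome 1, 135779434 to 135810989) are neighbours, 25.4 kb apart. Tnni3 is on chromosome 7 (4518305 to 4524229), 1.92 kb from Tnnt1, the slow skeletal troponin T. Tnnc1 is on chromosome 14 (31208312 to 31211729) and Tpm1 on chromosome 9 (67022590 to 67049406). These positions are from the GENCODE M21 annotation of GRCm38, which lists 15 transcripts of Tnnt2 and 21 of Tpm1. Gene counts do not resolve these splice forms.

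Tpm1 and Tnnt2 were called lower in the knockouts (edgeR adjusted p under 0.05), Tnnt2 near the threshold, and Tnnc1 and Tnni3 were not called. The stretches around the transcription starts of these 4 genes, the ones with counts, are shown. Each is 300 bases, from 250 before to 50 after the start (RefSeq, GRCm38.p6), and for Tnnt2 the more upstream of its 2 listed windows is given. Capitals mark CATTCC, the core of the M-CAT element that TEAD factors bind, first described in the chicken cardiac troponin T promoter, or its reverse complement GGAATG.
Tnnt2, chr1:135836084-135836383, plus strand: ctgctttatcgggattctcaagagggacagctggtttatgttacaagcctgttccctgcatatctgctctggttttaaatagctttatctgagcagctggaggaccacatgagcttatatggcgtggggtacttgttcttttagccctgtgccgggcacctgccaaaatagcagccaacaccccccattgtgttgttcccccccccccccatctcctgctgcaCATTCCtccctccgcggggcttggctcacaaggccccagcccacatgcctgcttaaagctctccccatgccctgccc
Tpm1, chr9:67049164-67049463, minus strand: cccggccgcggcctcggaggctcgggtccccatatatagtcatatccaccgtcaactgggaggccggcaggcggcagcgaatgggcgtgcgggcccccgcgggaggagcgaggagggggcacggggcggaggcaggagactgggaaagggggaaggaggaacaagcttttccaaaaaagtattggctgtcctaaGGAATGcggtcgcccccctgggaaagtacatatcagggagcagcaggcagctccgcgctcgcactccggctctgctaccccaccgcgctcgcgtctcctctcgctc
Tnnc1, chr14:31208062-31208361, plus strand: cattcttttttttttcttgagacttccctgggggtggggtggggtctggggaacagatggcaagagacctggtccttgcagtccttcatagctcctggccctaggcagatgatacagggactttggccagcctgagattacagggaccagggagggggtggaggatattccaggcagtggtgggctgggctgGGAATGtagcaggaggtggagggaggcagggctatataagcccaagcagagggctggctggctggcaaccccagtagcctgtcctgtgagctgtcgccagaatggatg
Tnni3, chr7:4522479-4522778, minus strand: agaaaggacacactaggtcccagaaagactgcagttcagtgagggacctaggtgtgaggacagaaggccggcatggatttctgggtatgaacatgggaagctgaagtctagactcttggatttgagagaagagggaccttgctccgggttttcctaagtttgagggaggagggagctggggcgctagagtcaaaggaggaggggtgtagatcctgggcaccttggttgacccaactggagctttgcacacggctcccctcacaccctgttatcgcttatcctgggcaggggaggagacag

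The M-CAT core occurred once each in the windows of Tnnt2 (from position -27 relative to the start), Tpm1 (-56) and Tnnc1 (-58), and in none of Tnni3 or Tnni1. Of all 32817 windows of this length, 14.7% held it on either strand. The core was present in the 2 genes called lower and in 1 that was not. Tnni3, which lacks the core, also lay lower in knockouts (log2 fold change -0.22) without being called. Any link between the core and the levels of these genes was not tested. GATAA, the core of GATA factor sites, occurred 2 times in Tnnt2 and 2 times in Tnni3, both outside any M-CAT core, and 25.4% of windows held it. TATAAA (held by 13.6% of windows), the MEF2 motif (3.19%) and the CArG box (1.63%) were in none of the 5 windows. A match of letters is not a measured binding site, and these sequences say nothing of the factors.

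Libraries held between 1062030 and 1227997 counts in knockouts and between 2867067 and 3234729 in controls, of which mtDNA transcripts made up 21.1% to 25.8% in knockouts and 79.5% to 83.5% in controls. Levels were therefore scaled on nuclear counts, of which there were 838015 to 910826 in knockouts and 499334 to 586461 in controls. Loci known to collect ribosomal RNA reads took most of those, leaving 126339 to 164004 counts in knockouts and 76949 to 109351 in controls. Polrmt itself had 2, 5 and 1 counts in knockouts and 3, 2 and 1 in controls, too few to check the deletion, which gene counts do not resolve. Levels are given as CPM, counts divided by the nuclear library size after TMM scaling and put on the usual CPM scale, and describe mRNA in a crude preparation and not in the whole heart. The 10 heart muscle cell markers, among them Myh6, Ttn and Ryr2, were all detected, with a summed level of 22851 to 24241 CPM in knockouts and 23664 to 29019 CPM in controls. Of the 10, 4 were called lower in knockouts (Ryr2, Pln, Atp2a2 and Actc1, with log2 fold changes of -1.22, -1.08, -0.93 and -0.62), 1 was called higher (Mybpc3) and 5 were not called, and their part in the results on the 5 genes was not tested. Of 8 fast skeletal muscle markers 7 had 0 counts in all libraries, and the other, Myl1, had 1 count in knockouts and 3 in controls.

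Tropomyosin showed the largest difference of the 5 genes. Tpm1 had 519, 490 and 556 CPM in knockouts, against 873, 935 and 1038 CPM in controls (raw counts 381, 411 and 538, against 397, 585 and 652). Every knockout lay well below every control. Tpm1 averaged 522 ± 33.4 CPM in knockouts and 949 ± 83.1 CPM in controls (SD, n = 3 each), which is 1.82-fold lower (log2 fold change -0.86 ± 0.13 SE, 95% interval -1.13 to -0.60, edgeR adjusted p = 2.03e-07 over all genes tested). Troponin T, the subunit that holds the complex to tropomyosin, fell less.

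Tnnt2 had 508, 540 and 514 CPM in knockouts, against 704, 654 and 715 CPM in controls (raw counts 373, 453 and 497, against 320, 409 and 449). The groups did not overlap, and the knockouts lay close together. Tnnt2 averaged 521 ± 16.9 CPM in knockouts and 691 ± 32.4 CPM in controls (SD, n = 3 each), 1.33-fold lower (log2 fold change -0.41 ± 0.13 SE, edgeR adjusted p = 0.0208). This call was near its threshold. It was lost when any 1 library was left out, with an adjusted p of 0.0850, 0.0529 and 0.0901 without control 1, 2 and 3 and of 0.0800, 0.0552 and 0.0630 without knockout 1, 2 and 3. The log2 fold change stayed between -0.45 and -0.37 in these fits. The call was also lost with DESeq2 (adjusted p = 0.110), with no low-count filter (0.166) and with no TMM factor where the ribosomal RNA loci counted in the library size (0.0662). With no TMM factor and those loci left out of the size, it was kept (-0.40, adjusted p = 0.0214).

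Troponin I, the inhibitory subunit, did not pass the test. Tnni3 had 349, 342 and 403 CPM in knockouts, against 451, 414 and 415 CPM in controls. Knockout 3 came close to the lower controls, and the groups still did not overlap. Tnni3 averaged 365 ± 33.7 CPM in knockouts and 427 ± 20.9 CPM in controls (SD, n = 3 each; log2 fold change -0.22 ± 0.13 SE, 95% interval -0.49 to 0.04, edgeR adjusted p = 0.265). A short stretch of 86 exonic bases, 4.17% of Tnni3 exon sequence, is shared with Dnaaf3 on the same strand, a gene with 0 counts in knockouts and 1 in controls.

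Troponin C, the calcium sensor, lay on the other side of no change and did not pass the test either. Tnnc1 had 223, 197 and 183 CPM in knockouts, against 167, 166 and 158 CPM in controls, from raw counts of 164, 165 and 177, against 76, 104 and 99. Each knockout lay above each control, by a narrow margin for knockout 3. Tnnc1 averaged 201 ± 20.5 CPM in knockouts and 164 ± 5.29 CPM in controls (SD, n = 3 each; log2 fold change 0.29 ± 0.14 SE, 95% interval 0.01 to 0.58, unadjusted p = 0.0454, edgeR adjusted p = 0.164). Tnnc1 lies inside the span of Nisch, which runs on the opposite strand, and shares 0 exonic bases with it. Since the strand setting of the counting is not given, reads of unspliced Nisch RNA could be counted for Tnnc1, and Nisch itself differed by 0.25 ± 0.20 SE on the log2 scale (edgeR adjusted p = 0.443).

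The fetal troponin I was not detected. Tnni1 had 0 counts in each of the 3 knockouts and each of the 3 controls. A total of 3 counts, the limit that a count of 0 allows, would be between 3.10 and 4.09 CPM in knockouts and between 4.77 and 6.60 CPM in controls. As a share of all troponin I counts, 0 of 933 in knockouts allows up to 0.322%, and 0 of 725 in controls up to 0.414% (counting error only). Tnnt2, its neighbour on chromosome 1, had 1323 counts in knockouts and 1178 in controls.

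Among nuclear genes tested, 15.7% were called in either direction, 7.1% as lower and 8.63% as higher. Of the 5 genes 4 passed the low-count filter, and of these 2 were called lower, 0 higher and 2 were not called, with a median log2 fold change of -0.31, against -0.01 over all 2351 nuclear genes tested. All 4 had groups that did not overlap, as had 32.8% of the nuclear genes tested. Of the 4, 3 lay lower in knockouts, as did 15.9% of the nuclear genes, and 1 lay higher, as did 16.8%. The directions hold relative to nuclear transcripts. Against the total library size with mtDNA counts included and no scaling factor, all 4 would be higher in knockouts, as would the median nuclear gene, by 2.06 on the log2 scale. In RNA from crude heart mitochondria, fewer heart muscle cells and less RNA per cell cannot be told apart, and levels in the whole heart were not measured.

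**Figure D1:**
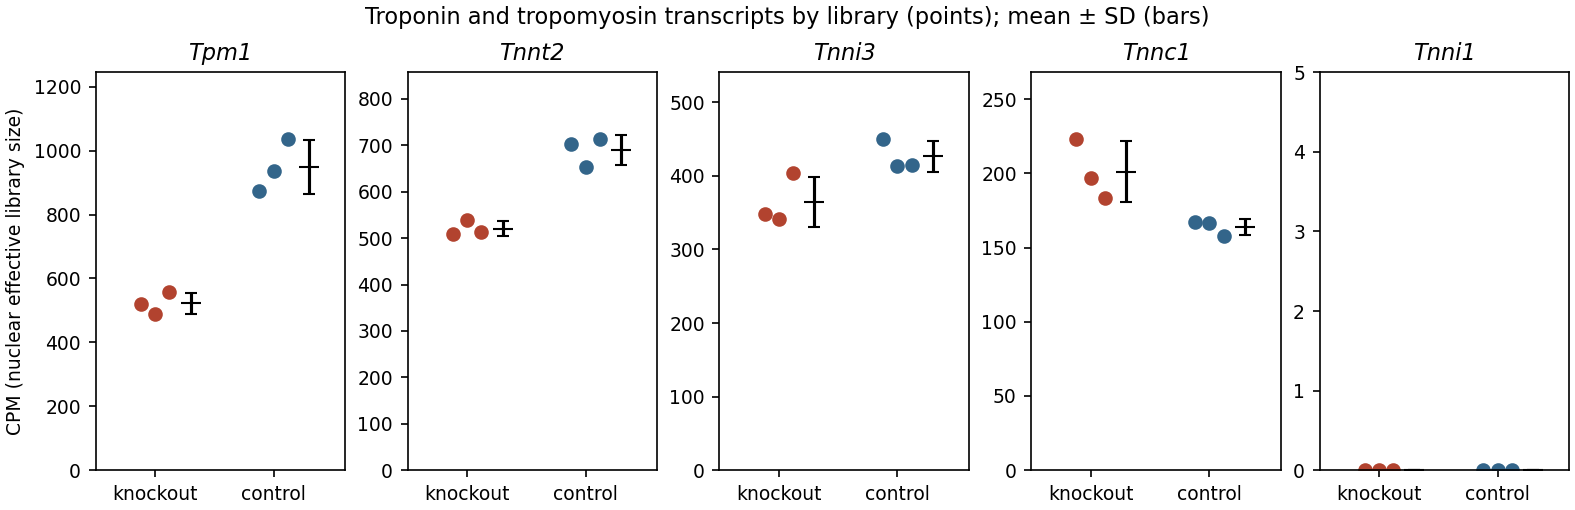
Levels of each gene in CPM of the nuclear effective library size (vertical axes from 0) in 3 knockout and 3 control libraries, as points, with the mean and SD beside them. Tpm1, Tnnt2 and Tnni3 lay lower and Tnnc1 higher in knockouts without overlap of the groups, and Tnni1 was at 0 throughout.

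The 4 detected genes together made up 0.940% ± 0.0323 of nuclear counts without the ribosomal RNA loci in knockouts and 1.298% ± 0.0379 in controls (SD, n = 3 each, exact permutation p = 0.1, the smallest that 3 against 3 allows). The gene with the largest difference in this share was Tpm1, at 0.305% ± 0.0213 in knockouts and 0.552% ± 0.0408 in controls. No test was run on the mix of the genes. Of the summed counts of the genes, Tpm1 held 32.4% ± 1.18 in knockouts and 42.5% ± 2.48 in controls, and Tnnc1 12.5% ± 1.46 in knockouts and 7.35% ± 0.499 in controls (SD, n = 3 each). Tnnt2 took a like share in both, 32.4% ± 1.79 in knockouts and 30.98% ± 0.985 in controls.

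Levels can be set against each other only per length. Per kb of the principal coding transcript (721 bases for Tnnc1, 912 for Tnni3, 1200 for Tnnt2 and 1898 for Tpm1), the order in knockouts was Tnnt2 (434 ± 14.0 CPM per kb), Tnni3 (399.9 ± 36.9), Tnnc1 (279 ± 28.5) and Tpm1 (275 ± 17.6). In that order Tnnt2 and Tnni3 overlapped, and so did Tnnc1 and Tpm1. In controls the order was Tnnt2 (576 ± 27.0 CPM per kb), Tpm1 (499.8 ± 43.8), Tnni3 (468 ± 22.9) and Tnnc1 (227 ± 7.34), where Tpm1 overlapped with both of its neighbours and Tnnc1 lay apart at the bottom. The highest mean level was 1.58 times the lowest in knockouts and 2.54 times the lowest in controls. With the union of all annotated exons as the length, which is 7752 bases for Tnnt2, Tnnt2 was the lowest of the 4 in both groups. The order between genes thus depends on the length chosen, whereas a comparison of 1 gene between groups does not.

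**Figure D2:**
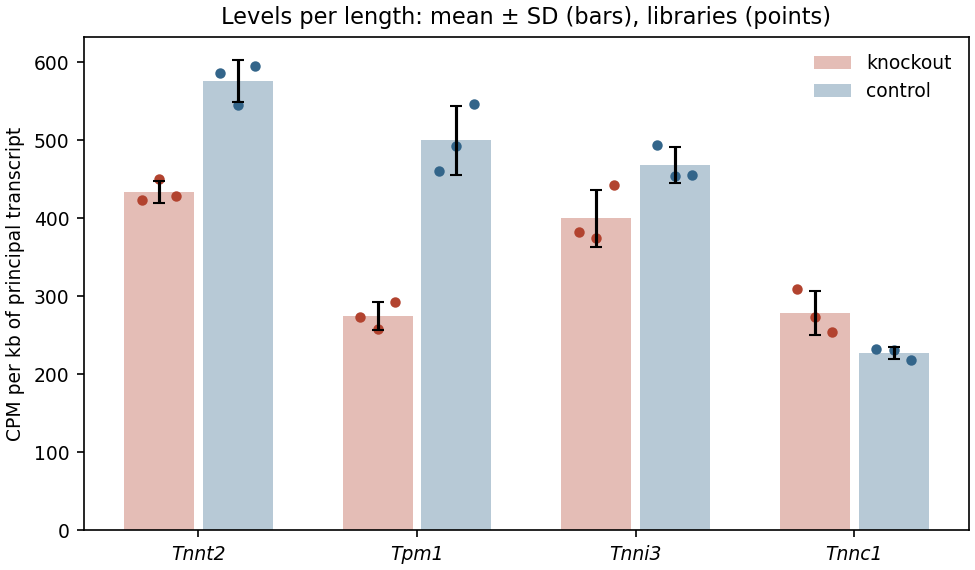
Level in CPM per kb of the principal transcript for the 4 detected genes, with knockouts left of controls. Bars give means, error bars SD and points the 3 libraries of each group, and Tpm1 stood second in controls (499.8) and last in knockouts (275).

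Ratios of raw counts between genes of the same library need no scaling. Ratios were formed for 6 pairs, and the 4 pairs with Tnni1 were not formed because its counts were 0. The pair of calcium sensor and tropomyosin had the largest difference of the 6, though 3 against 3 cannot pass the threshold. Tnnc1 had 0.430, 0.401 and 0.329 counts for each Tpm1 count in knockouts, against 0.191, 0.178 and 0.152 in controls. On the log2 scale the ratio was -1.38 ± 0.20 in knockouts and -2.53 ± 0.17 in controls (SD, n = 3 each), a difference of 2.22-fold (exact permutation p = 0.1, adjusted over the 6 pairs 0.12). The counting interval of each knockout lay above that of each control.

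The ratio of Tnnc1 to Tnnt2 was -1.37 ± 0.17 in knockouts and -2.07 ± 0.10 in controls, and that of Tnnc1 to Tnni3 was -0.86 ± 0.25 in knockouts and -1.38 ± 0.06 in controls (log2, SD, n = 3 each). The libraries of the groups did not overlap in either ratio. For Tnnc1 to Tnni3, however, the counting intervals of knockout 2 (-1.08 to -0.52) and knockout 3 (-1.40 to -0.88) overlapped with that of every control. For Tnnc1 to Tnnt2, those of knockouts 2 and 3 overlapped with those of controls 1 and 2. Tnni3 to Tpm1 was -0.52 ± 0.05 in knockouts and -1.15 ± 0.19 in controls, and Tnnt2 to Tpm1 was -0.002 ± 0.13 in knockouts and -0.45 ± 0.13 in controls. The counting interval of control 1 overlapped with those of knockouts 1 and 2 for Tnni3 to Tpm1. For Tnnt2 to Tpm1 it overlapped with those of knockouts 1 and 3. The 6 ratios share the same 4 genes, so they are not independent of each other. What share of other gene pairs would lie without overlap was not computed. In 5 of the 6 pairs the groups did not overlap, each with an exact permutation p of 0.1 and an adjusted p of 0.12. The remaining pair was Tnni3 to Tnnt2, at -0.52 ± 0.16 in knockouts and -0.69 ± 0.08 in controls, where the groups overlapped (exact permutation p = 0.2).

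**Figure D3:**
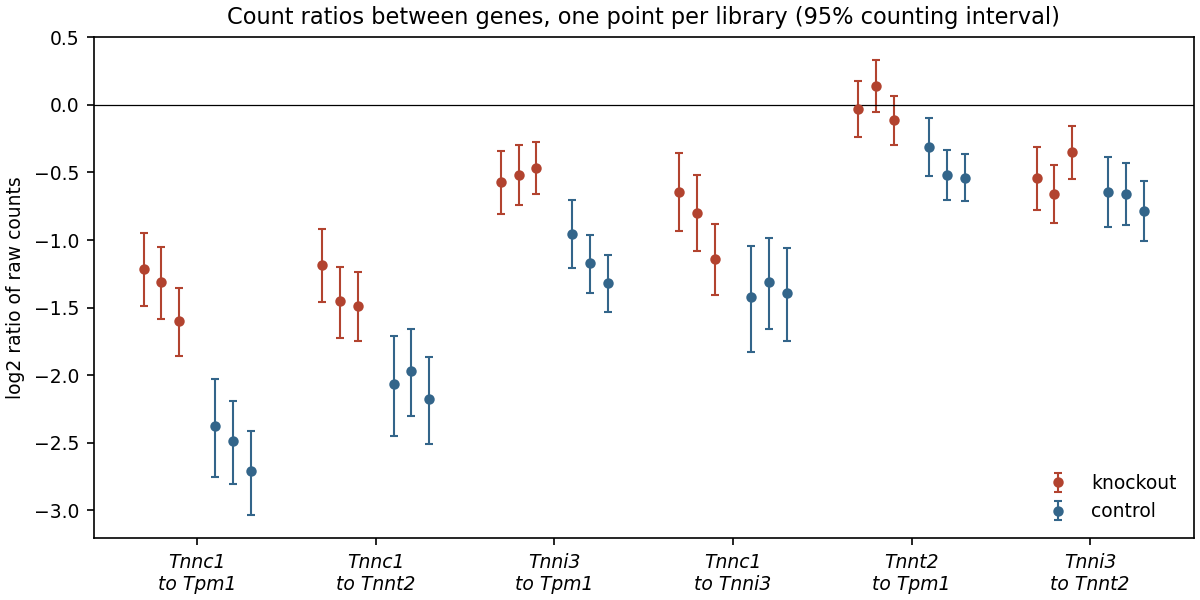
Log2 ratio of raw counts for each of 6 gene pairs, 1 point per library with its 95% Clopper-Pearson counting interval, knockouts left of controls. Tnnc1 to Tpm1 differed most, 2.22-fold, and Tnni3 to Tnnt2 was the pair whose groups overlapped.

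Other forms of troponin and tropomyosin were scarce. Of 7 paralogs 1 passed the low-count filter and was called lower, 0 were higher and 6 were not tested. Tpm4, a tropomyosin of the cytoskeleton, had 19.1, 23.8 and 19.7 CPM in knockouts, against 39.6, 39.96 and 36.6 CPM in controls, without overlap. It was 1.84-fold lower (log2 fold change -0.88, 95% interval -1.43 to -0.34, edgeR adjusted p = 0.0165), from 53 counts in knockouts and 66 in controls. The call was lost without control 1 (adjusted p = 0.0561), control 2 (0.0716), knockout 1 (0.0507) or knockout 3 (0.0609), with DESeq2 (0.186) and with no low-count filter (0.103).

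Below the filter, Tpm2, the beta-tropomyosin, had 0, 3 and 5 counts in knockouts and 4, 8 and 4 in controls, a scaled ratio of 0.336 (95% Poisson limits 0.125 and 0.833, for counting error alone). Tpm3, the tropomyosin of slow muscle and cytoskeleton, had 19 counts in knockouts and 22 in controls, a ratio of 0.581 (0.297 to 1.12). Tnnt1 had 4 counts in knockouts and 3 in controls, and Tnnt3, the fast skeletal troponin T, had 1 count in knockouts and 0 in controls. The fast skeletal troponins I and C, Tnni2 and Tnnc2, had 0 counts in all 6 libraries.

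Partners on the thin filament moved in both directions. Of the 12 other thin filament genes listed, 9 were tested, of which 2 were higher, 1 was lower and 6 were not called, with a median log2 fold change of 0.45. Actc1, the cardiac actin on which tropomyosin lies, had 653, 739 and 1016 CPM in knockouts, against 1141, 1148 and 1424 CPM in controls, 1.54-fold lower (log2 fold change -0.62, edgeR adjusted p = 6.89e-04). Acta1, the skeletal actin, had 257, 299 and 244 CPM in knockouts and 35.2, 14.4 and 4.77 CPM in controls (log2 fold change 3.997, edgeR adjusted p = 3.96e-09). The controls differed widely for Acta1, and the log2 fold change was 4.78 without control 1 and 3.51 without control 3. Actin coding sequences are closely alike, so reads could be shared between Actc1 and Acta1.

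Cfl2, a muscle cofilin that severs actin filaments, rose to 57.2, 64.4 and 76.5 CPM in knockouts, against 30.8, 30.4 and 20.7 CPM in controls, 2.46-fold higher (edgeR adjusted p = 1.17e-05). Genes of the filament ends did not pass the test. Tmod1, the cap of the pointed end, had a log2 fold change of -0.27 (95% interval -0.66 to 0.12), and Lmod2, which lengthens the filament, one of -0.33 (-0.73 to 0.07). Lmod3, Nebl, Cap2 and Pdlim5 had log2 fold changes of 0.83, 0.20, 0.55 and 0.45 without passing, and Tmod4 had 0 counts.

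The thick filament, the partner that troponin and tropomyosin regulate, gave 2 higher, 0 lower and 5 not called among 7 tested of 8 listed genes, with a median log2 fold change of 0.16. Mybpc3, the cardiac myosin-binding protein C, had 1076, 958 and 886 CPM in knockouts, against 622, 609 and 670 CPM in controls, 1.53-fold higher (edgeR adjusted p = 2.21e-04). With no TMM factor its adjusted p was 0.0577 where the ribosomal RNA loci counted in the library size and 1.22e-04 where they did not. Myh7, the slow myosin heavy chain of the fetal mouse heart, had 119.9, 111 and 49.6 CPM in knockouts, against 46.2, 36.8 and 35.01 CPM in controls (log2 fold change 1.24, edgeR adjusted p = 0.0418). Knockout 3 lay near the controls, and the call was lost without control 1 (adjusted p = 0.101) or control 3 (0.141). Myh6, the main myosin of the mouse heart, had a log2 fold change of 0.001 (95% interval -0.34 to 0.34), so that its interval held 0. Of the fetal forms named so far, Myh7 and Acta1 were thus higher in knockouts while Tnni1 was at 0 counts in both groups. The thick filament list also holds the atrial markers Myl4 and Myl7. Myl4 was not called (log2 fold change 0.29, edgeR adjusted p = 0.821) and its groups overlapped. Myl7, with 27 counts in knockouts and 18 in controls, was not tested.

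**Figure D4:**
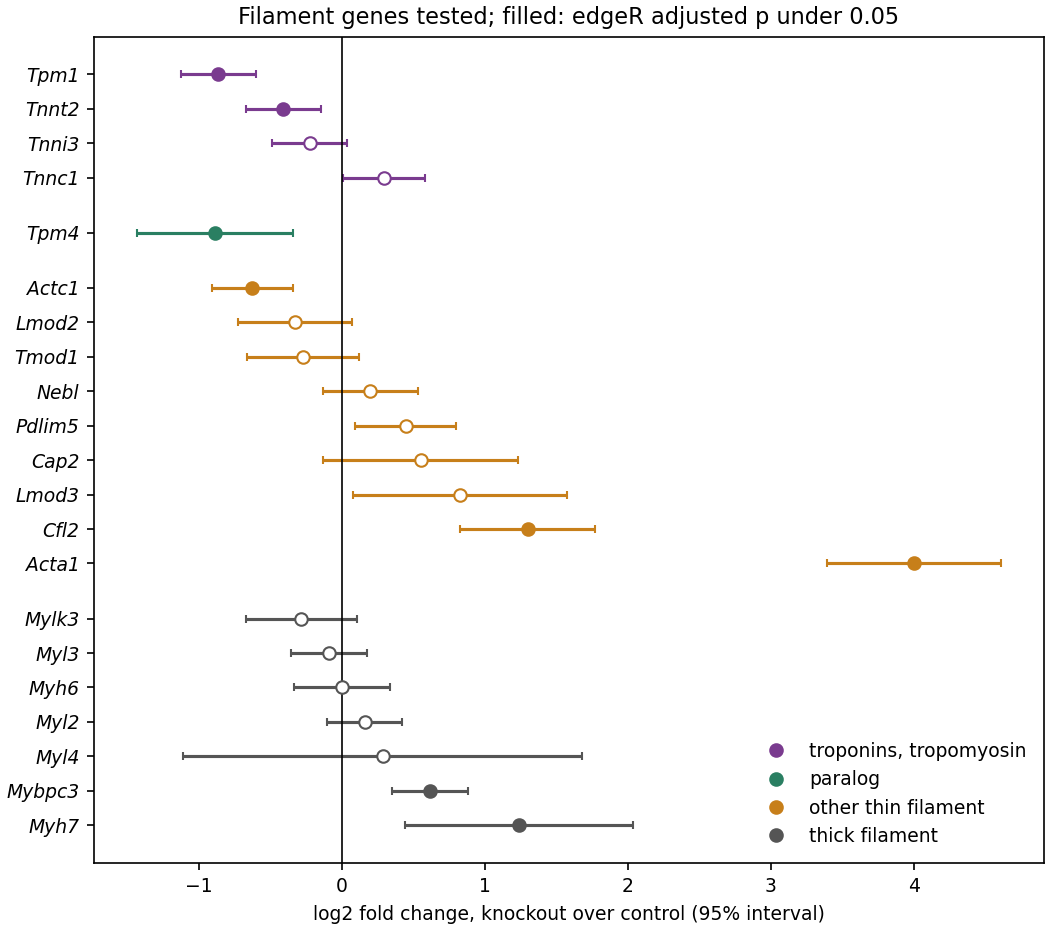
Log2 fold change of knockout over control with its 95% interval for the tested genes of the troponins and tropomyosin, their paralogs, the other thin filament genes and the thick filament genes. Filled points passed an edgeR adjusted p under 0.05, and Tpm1, Tnnt2, Tpm4 and Actc1 did so below 0.

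Genes with the profile most like each gene over the 6 libraries were found among 1155 nuclear genes of at least median level, by the root mean square difference of centred log2 CPM. Filament genes were not left out of this search. Closest to Tpm1 were Ppip5k2, an inositol phosphate kinase (difference 0.075), Cdh2, the N-cadherin of the junctions between heart cells (0.0893), and Myadm (0.109), with log2 fold changes of -0.91, -0.78 and -1.01. All of these passed the test. Closest to Tnnt2 were Kmt2d, a histone methyltransferase (0.0387), Hspg2, the basement membrane proteoglycan perlecan (0.0603), and Heg1 (0.0613). Closest to Tnni3 were Idh2, a mitochondrial isocitrate dehydrogenase (0.0458), Hnrnpa2b1 (0.071) and Ctnnb1, the beta-catenin (0.0732), and closest to Tnnc1 were Rpph1, the RNA of ribonuclease P (0.0457), Pkm, the muscle pyruvate kinase (0.0544), and Nucks1 (0.0798). None of the genes closest to Tnnt2, Tnni3 or Tnnc1 passed the test. The profiles span both groups, so a close profile brings a like fold change by construction. Passing or not passing is therefore no separate result.

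Tpm1 and Tpm4 are also made in other cells of the heart, so the values of the markers of those cells stand here. The summed level of 8 smooth muscle and pericyte markers was 247 to 344 CPM in knockouts and 377 to 446 CPM in controls, with 2 lower of 5 tested. That of 8 macrophage markers was 50.4 to 71.4 CPM in knockouts and 133 to 187 CPM in controls, with 3 lower of 3 tested. That of 8 endothelial markers was 247 to 301 CPM in knockouts and 318 to 352 CPM in controls, with 0 called of 6 tested. The 8 fibroblast markers overlapped between groups, at 1606 to 1833 CPM in knockouts and 1816 to 1975 CPM in controls, with 2 lower of 8 tested. No marker of these 4 lists was at 0 in all libraries, and their part in the lower Tpm1 and Tpm4 was not tested. Tnnt2, Tnni3 and Tnnc1 are markers of muscle cells.

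The authors' deposited table gave the same order of genes. In the authors' deposited table the log2 fold change was -0.86 for Tpm1 (FDR 2.29e-07), -0.39 for Tnnt2 (FDR 0.0101), -0.19 for Tnni3 (FDR 0.562) and 0.31 for Tnnc1 (FDR 0.183). Its sign was read as knockout over control because mtDNA genes, whose counts were lower in knockouts, have negative values there. Tnni1 is not among its genes. Of the nuclear genes in the authors' deposited table, 5.12% had an FDR under 0.05, and 2.03% were lower. The fit behind that table used the same libraries and is no separate evidence.

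**Figure D5:**
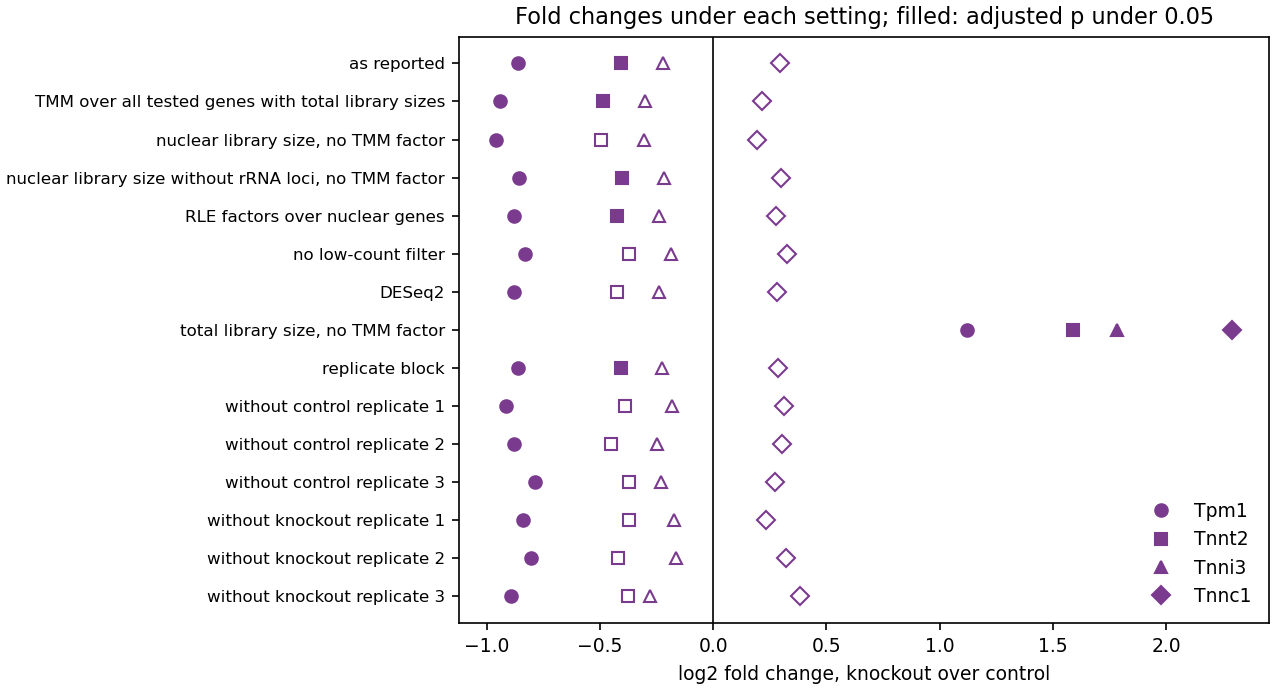
Log2 fold change of knockout over control for the 4 detected genes (symbols) under the reported setting and each alternative, filled where the adjusted p was under 0.05. Tpm1 was past the threshold in all, Tnnt2 in some, and all 4 lay above 0 where the total library size with mtDNA counts was used without a scaling factor.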

How the data were processed

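RNA of crude heart mitochondria was sequenced in 3 knockout and 3 control libraries. Per the labels' protocols it was isolated with a miRNeasy kit and sequenced paired-end on a MiSeq from TruSeq libraries. Per the submitters' processing notes, HISAT 0.1.6, featureCounts 1.3.5-p4, R 3.2.0, edgeR 3.11.2 and GRCm38 were used. The authors deposited raw counts per gene as whole numbers, which were used here. Their normalised values were not used. Which annotation release, strand setting and rule for reads with several alignments were chosen is not given in the sources. The authors also deposited their own edgeR comparison, in which each gene has a p-value and its FDR, a log2 fold change, a mean level in log2 CPM and a likelihood ratio (a score).

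Symbols came from GENCODE M21 (37570 nuclear identifiers matched, 1572 did not). All genes were fitted with edgeR's quasi-likelihood test (edgeR 4.0.16, R 4.3.3, robust). Library size was the sum of nuclear counts, TMM was computed over nuclear genes passing filterByExpr (minimum count 10, minimum total 15), and Benjamini-Hochberg adjustment ran over 2369 tested genes. The SE is that implied by the F statistic. With a nuclear library this small, genes under about 10 counts per library give no precise fold change. Floors of 3 counts and intervals of ratios reflect counting error alone, because PCR copies were not told apart by molecular identifiers. Single values were compared with 2-sided exact permutation tests (SciPy 1.17.1). Ratios used raw counts plus 0.5.

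The genes and lists were chosen with earlier results of these data known. Named genes are the 5 genes, called or scarce genes of the filament lists, and the 3 nearest profiles of each tested gene. Uncalled filament genes and Nisch, named with values, were chosen after their values were seen. No transcript of another gene matched the principal transcripts of the 5 genes over at least 100 bases at 95% identity (BLAST 2.17.0). Replicates differed by more than sampling noise (chi-square per degree of freedom 1.19 to 1.43). The procedure was tested on simulated counts. Alternatives were other scalings, no low-count filter, DESeq2 1.42.0, a replicate block and leaving out each library.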

Additional observations from a re-analysis of the deposited data

How the results depend on the processing

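Tpm1 passed the test under every alternative run, with a log2 fold change from -0.96 to -0.78, except that its sign turned with the total library size and no scaling factor, an alternative chosen after seeing the data. There the log2 fold change was 1.12 for Tpm1, 1.59 for Tnnt2, 1.78 for Tnni3 and 2.29 for Tnnc1, and 3324 nuclear genes were higher and 2 lower, with 2 paralogs, 9 other thin filament genes and 6 thick filament genes called. That setting counts mtDNA reads in the size and applies no factor. With mtDNA reads in the size and TMM over all tested genes, the signs did not turn (Tpm1 -0.94, Tnnt2 -0.48, Tnni3 -0.30, Tnnc1 0.22). Tnnt2 lost its call with no TMM factor and ribosomal RNA loci counted in the library size (-0.496, adjusted p = 0.0662; -0.40 and 0.0214 with those loci left out), with no low-count filter (-0.37, adjusted p = 0.166) and with DESeq2 (-0.42, adjusted p = 0.110); the cause was not tested. Leaving out 1 library gave -0.45 to -0.37 for Tnnt2, 108 to 148 nuclear genes lower, against 167 with all, 0 to 1 paralogs and 1 to 2 thick filament genes called. Without knockout 1 there were 108 lower. Over all alternatives the adjusted p of Tnnt2 ranged from 2.65e-11 (turned sign) to 0.166. DESeq2 called 95 nuclear genes higher, against 203, and 53 lower, and 0 paralogs. With no low-count filter 102 were lower and 0 paralogs were called, and with no TMM factor 1 thick filament gene was called with those loci counted, Mybpc3 being lost (adjusted p = 0.0577), and 2 with them left out. Of all nuclear calls 54.9% were higher, against 44.1% with no TMM factor and those loci counted, 56.5% with them left out, 64.9% with no filter and 64.2% with DESeq2.

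Equal replicate numbers did not pair the libraries: the correlations of their deviations from the group means were -0.0182, -0.00328 and 0.0673. With the replicate block 206 nuclear genes were higher and 163 lower, and no call of a listed filament gene changed (Tpm1 -0.86, Tnnt2 -0.41, adjusted p = 0.0196). Not every knockout correlated best with the control of its own number. All pair ratios and the share of the genes kept their direction in each alternative run. Depth limits what can be said of Tnni1 and of the paralogs below the low-count filter.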
